A study of Homo sapiens with 3 samples.

Results

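The miR-15/16 family, in its wider sense with miR-195, miR-497, miR-424 and miR-503, was followed through small RNA libraries of HEK293-derived cells. Its members were taken by precursor: every mature miRNA listed for the hairpins hsa-mir-15a, hsa-mir-15b, hsa-mir-16-1, hsa-mir-16-2, hsa-mir-195, hsa-mir-497, hsa-mir-424 and hsa-mir-503, from both arms, with counts summed by mature name. These 8 hairpins gave 15 mature miRNAs, 7 from 5p arms and 8 from 3p arms, out of 1351 endogenous mature miRNAs with any count. Of the 15, 12 had a mean of at least 10 counts and were kept for ratios, as part of 514 miRNAs kept in all, and each of the 12 had at least 10 counts in every library.

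The study placed miRNA hairpins inside an intron of a GFP cassette, under a cytomegalovirus promoter that doxycycline switches on, integrated it from a lentiviral vector and asked how cells respond to 1 added miRNA. All were Flp-In T-REx 293 cells, which descend from HEK293, a line of human embryonic kidney origin. The control cells carried the empty vector, and the other lines carried the vector with a hairpin for miR-1, a muscle miRNA, or for miR-122, a liver miRNA. All lines, the control included, were selected in Geneticin at 1 mg/mL for 6 days and then received doxycycline at 1 ug/mL for 7 days, and each library used 1000 ng of total RNA.

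Each group held 1 library, so no difference below has a replicate check and none was tested between conditions. Intervals are 95% intervals of counting error only. In bulk RNA, fewer cells with a miRNA and less of it per cell cannot be told apart. Endogenous counts were 1636481 in the control, 1791702 in the miR-1 line and 1947669 in the miR-122 line. Synthetic hairpins took 0.0216% of all counts in the control, against 38.1% in the miR-1 line and 24.4% in the miR-122 line. They were therefore left out of scaling. Counts of miR-3591-5p outside the synthetic hairpins stayed among the endogenous ones. Its log2 ratio to the control was 10.03 in the miR-122 line, at a mean of 586 counts, and the source of these reads was not tested. All 4 HEK293 markers examined (miR-10a-5p, miR-10b-5p, miR-17-5p and miR-92a-3p) were present. Of 10 planned markers of blood, endothelium, smooth muscle and muscle, 9 were listed among endogenous miRNAs (miR-133a-3p was not). In the control, the miR-1 line and the miR-122 line, miR-126-3p had 5319, 6314 and 7533 counts. miR-143-3p had 112, 169 and 107. miR-223-3p and miR-208a-3p were at 0 in every library, and the rest had at most 10 counts. The summed 9 made up 0.333% to 0.393% of endogenous counts, almost all of it miR-126-3p.

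miRNAs guide Argonaute proteins to messenger RNAs, chiefly by pairing of their seed, the bases close to their 5′ end. The miR-15/16 family shares a seed across several loci and is best known for repressing cyclins, other drivers of the G1 to S transition and the survival gene BCL2. Its founding locus lies in a region that is frequently deleted in chronic lymphocytic leukaemia. Each hairpin can yield a mature miRNA from its 5p and its 3p arm, and in this family the 5p arms carry the shared seed.

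The 5p arms are shown first, since they define the family. Sequences are from RefSeq (GRCh38.p14 table), in which all 15 members were found. They are written 5′ to 3′ with the seed, bases 2 to 8, in capitals.
miR-15a-5p: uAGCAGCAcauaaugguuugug
miR-15b-5p: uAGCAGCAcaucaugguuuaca
miR-16-5p: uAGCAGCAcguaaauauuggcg
miR-195-5p: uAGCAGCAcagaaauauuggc
miR-424-5p: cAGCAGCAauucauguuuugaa
miR-497-5p: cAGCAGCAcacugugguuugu
miR-503-5p: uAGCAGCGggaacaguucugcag

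The seed AGCAGCA was held by 6 of the 7. In the same table only miR-6838-5p, outside the family, also had it. miR-503-5p differed in the last base of its seed, AGCAGCG, which no other miRNA of the table shared. Some pairs differed at few positions outside the seed. Counted from 1 at the 5′ end of the first-named miRNA, miR-15a-5p and miR-15b-5p differed by A12C, G20A, U21C and G22A, and miR-16-5p and miR-195-5p by G10A and U11G, besides the last base of miR-16-5p. The 3p arms that the results turn on had other seeds, and miR-16-2-3p and miR-195-3p shared 1 (CAAUAUU).
miR-16-1-3p: cCAGUAUUaacugugcugcuga
miR-16-2-3p: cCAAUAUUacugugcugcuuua
miR-195-3p: cCAAUAUUggcugugcugcucc
miR-424-3p: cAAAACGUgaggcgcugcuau

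The hairpins lie in pairs at 4 loci, given here on GRCh37 from exact matches of the hairpin sequences, with GENCODE annotation. On chromosome 13, hsa-mir-15a (chr13:50623255-50623337, minus strand) overlapped an exon of the long non-coding RNA DLEU2, and hsa-mir-16-1 (chr13:50623109-50623197, minus strand) lay in a DLEU2 intron, with 57 bases between them. On chromosome 3, hsa-mir-15b (chr3:160122376-160122473) and hsa-mir-16-2 (chr3:160122533-160122613) lay 59 bases apart on the plus strand, in an intron of SMC4, a condensin subunit gene. On chromosome 17, hsa-mir-195 (chr17:6920934-6921020) and hsa-mir-497 (chr17:6921230-6921341) overlapped exons of the host transcript MIR497HG on the minus strand, 209 bases apart. On the X chromosome, hsa-mir-503 (chrX:133680358-133680428, minus strand) overlapped an exon of MIR503HG, and hsa-mir-424 (chrX:133680644-133680741, minus strand) lay 215 bases from it, within no annotated host gene. The mature miR-16-5p is made by both hsa-mir-16-1 and hsa-mir-16-2, whereas every other member comes from 1 hairpin.

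Family members covered more than 3 orders of magnitude. Levels are given as scaled counts, that is, counts divided by a library factor of 0.942 in the control, 1.01 in the miR-1 line and 1.05 in the miR-122 line. miR-16-5p was the highest member in every library, at 6480 scaled counts in the control, 5698 in the miR-1 line and 4787 in the miR-122 line. It ranked 43 of the endogenous miRNAs in the control, 46 in the miR-1 line and 52 in the miR-122 line. It made up 51.7% of family counts in the control, 48.9% in the miR-1 line and 45.7% in the miR-122 line.

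Next in the order came the chromosome 3 products. miR-15b-5p stood at 1652, 1730 and 1696 scaled counts (control, miR-1 line, miR-122 line) and miR-16-2-3p at 1470, 1590 and 1543. Their counting intervals were apart in the control and overlapped in both induced lines. miR-503-5p followed at 812, 690 and 652, apart from its neighbours in all libraries. A middle tier held miR-15a-5p (587, 525 and 332), miR-15b-3p (525, 492 and 517), miR-424-3p (393, 399 and 540) and miR-424-5p (343, 289 and 188). Within this tier the order depended on the library: miR-15a-5p and miR-15b-3p overlapped in the control and the miR-1 line but not in the miR-122 line, and miR-424-3p and miR-424-5p overlapped in the control alone.

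The lowest members that were kept were miR-16-1-3p at 127, 133 and 82.5 scaled counts, miR-195-3p at 53.1, 34.7 and 66.4, miR-195-5p at 49.9, 45.7 and 42.7, and miR-497-5p at 26.6, 28.8 and 19.0. miR-195-3p and miR-195-5p overlapped in all 3 libraries. Another 3 members, all 3p arms, were close to the floor of 3 counts, which corresponds to 1.83, 1.04 and 1.16 RPM (deposited counts scaled to a common total) in the 3 libraries. miR-15a-3p had 0, 1 and 2 counts, miR-497-3p had 1, 0 and 0, and miR-503-3p had 2, 4 and 4, and they overlapped each other in every library. No ratio is given for these 3, since a difference between libraries was not detectable at this depth.

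**Figure D1:**
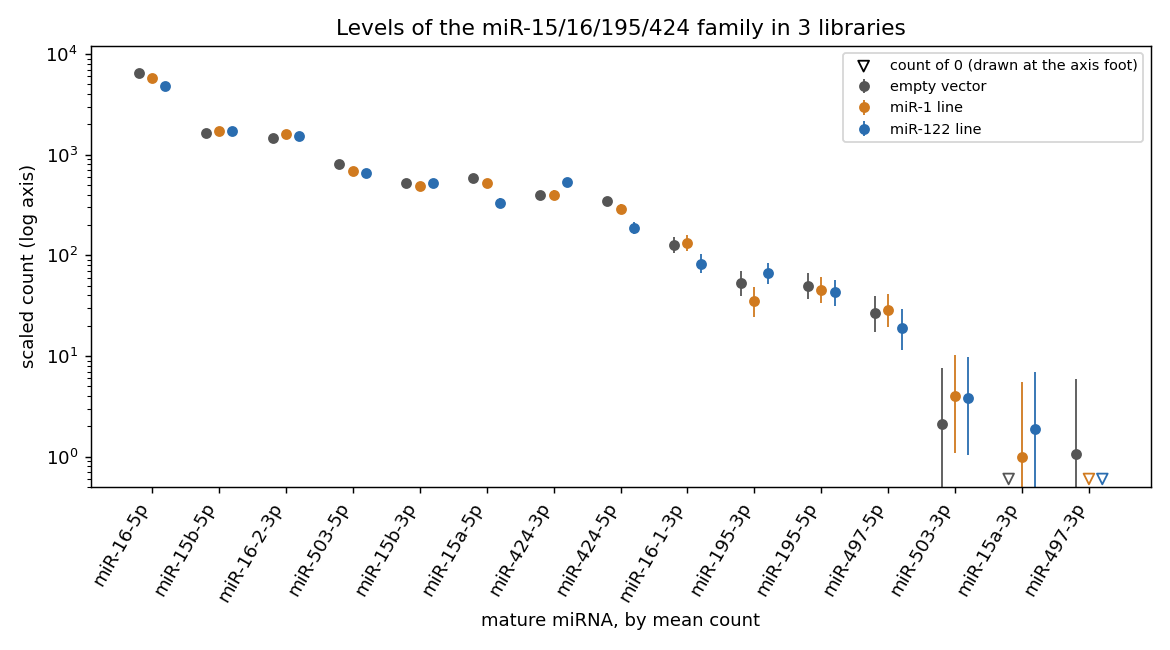
Scaled counts (log axis) of the 15 family members in the control (empty vector), the miR-1 line and the miR-122 line, ordered by mean count; points are single libraries, bars are 95% Poisson counting intervals and open triangles are counts of 0. miR-16-5p lay at 4787 to 6480 in every library, and miR-15a-5p and miR-424-5p were lowest in the miR-122 line.

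The first comparison asked whether the family stayed at the control level when miR-1 was induced. Most members lay close to it, and the family summed to 11792 counts in the control and 11748 in the miR-1 line, which was 0.721% (Wilson interval 0.708 to 0.734%) and 0.656% (0.644 to 0.668%) of endogenous counts. The log2 ratio of the scaled sums was -0.10 (-0.14 to -0.07). Without miR-16-5p it was -0.02 (-0.07 to 0.03), an interval that included 0. miR-16-5p itself had a log2 ratio of -0.19 (-0.24 to -0.13).

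By the fold rule, 0 of 12 members were at least 1.5-fold higher in the miR-1 line, where 7.2% of the 514 miRNAs kept were, and 1 of 12 was at least 1.5-fold lower, where 9.34% of all were. The lower member was miR-195-3p, with 50 counts in the control and 35 in the miR-1 line, and its log2 ratio of -0.61 had an interval (-1.28 to 0.04) that included 0. The median log2 ratio was -0.11 over the members and -0.01 over all miRNAs kept. The remaining ratios ran from -0.25 (-0.48 to -0.02) for miR-424-5p to 0.11 for miR-16-2-3p and miR-497-5p. miR-503-5p, which shares the X locus with miR-424-5p, had -0.24 (-0.39 to -0.09). Each of these differences was smaller than the spread of all miRNAs between these libraries, 0.31 on the log2 scale (the median absolute deviation scaled to an SD), apart from that of miR-195-3p.

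The same question for miR-122 gave larger differences, the largest of them in miR-424-5p, miR-15a-5p and miR-16-1-3p. The family summed to 11038 counts in the miR-122 line, 0.567% (0.556 to 0.577%) of endogenous counts, with a log2 ratio to the control of -0.26 (-0.30 to -0.22). Without miR-16-5p the ratio was -0.09 (-0.14 to -0.04). The median log2 ratio was -0.27 over the members and -0.04 over all miRNAs kept. The spread of all miRNAs was also wider in this pair of libraries, 0.52 against 0.31 for the miR-1 line. Among members, only the 3 lower ones named below lay farther from 0 than that spread. By the fold rule 0 of 12 members were higher, against 11.3% of all miRNAs kept, and 3 of 12 were lower, against 15.8% of all. Among the 263 miRNAs with a mean of at least 100 counts, 9.89% were at least 1.5-fold lower, and the 9 members in that range included the same 3. These members, miR-15a-5p, miR-424-5p and miR-16-1-3p, are described in turn.

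miR-15a-5p had 553 counts in the control, 529 in the miR-1 line and 350 in the miR-122 line. The miR-122 line stood apart from the other two, whose counting intervals overlapped. Its level there was 1.77-fold lower than in the control, a log2 ratio of -0.82 (-1.02 to -0.63), and 44 of the 514 miRNAs had a lower one. miR-15b-5p, which has the same seed and is read from chromosome 3, had a log2 ratio of 0.04 (-0.06 to 0.14) in the same pair of libraries. Their ratio within a library needs no scaling. It was 0.355 (0.322 to 0.392) in the control, 0.304 (0.275 to 0.335) in the miR-1 line and 0.196 (0.174 to 0.220) in the miR-122 line.

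miR-424-5p had 323 counts in the control, 291 in the miR-1 line and 198 in the miR-122 line, again with the miR-122 line lowest. It was 1.82-fold lower there than in the control, a log2 ratio of -0.87 (-1.13 to -0.61), the lowest of the 12 members. miR-503-5p, its partner 215 bases away, was 1.25-fold lower, at -0.32 (-0.47 to -0.17). The ratio of miR-424-5p to miR-503-5p was 0.422 (0.370 to 0.481) in the control, 0.419 (0.364 to 0.481) in the miR-1 line and 0.288 (0.245 to 0.338) in the miR-122 line. The other arm of hsa-mir-424, miR-424-3p, lay on the opposite side of the control, with 370, 402 and 569 counts and a log2 ratio of 0.46 (0.27 to 0.65) in the miR-122 line.

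miR-16-1-3p, the 3p arm from chromosome 13, had 120 counts in the control, 134 in the miR-1 line and 87 in the miR-122 line. It was 1.54-fold lower in the miR-122 line, with a log2 ratio of -0.62 whose interval (-1.04 to -0.22) reached above the 1.5-fold limit. miR-16-5p was 1.35-fold lower, at -0.44 (-0.49 to -0.38). miR-497-5p and miR-195-5p, the low members of the shared seed, had ratios of -0.48 (-1.41 to 0.42) and -0.22 (-0.85 to 0.40), and miR-195-3p had 0.32 (-0.22 to 0.88). All 3 of these intervals included 0, and for both 5p arms the interval also held the value of miR-15a-5p, so that at 20 to 47 counts such a difference was not detectable.

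**Figure D2:**
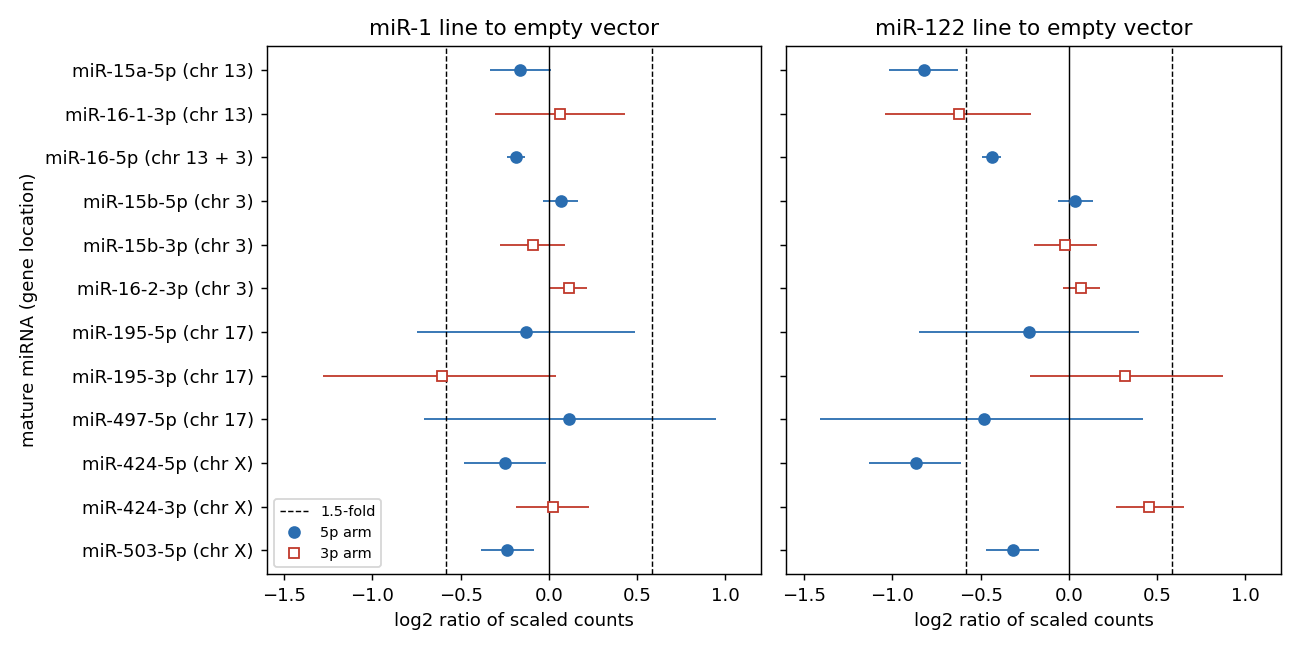
Log2 ratio of scaled counts of the 12 members kept, for the miR-1 line (left) and the miR-122 line (right) against the control, grouped by chromosome; filled circles are 5p arms, open squares 3p arms, bars 95% counting intervals and dashed lines 1.5-fold. In the right panel miR-15a-5p (-0.82), miR-424-5p (-0.87) and miR-16-1-3p (-0.62) lie past the lower line, while the chromosome 3 members lie at -0.02 to 0.07.

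Grouped by locus, the products found only on chromosome 13 (miR-15a-5p, miR-15a-3p and miR-16-1-3p) summed to 673 counts in the control, 664 in the miR-1 line and 439 in the miR-122 line. Their log2 ratio to the control was -0.12 (-0.27 to 0.04) in the miR-1 line and -0.78 (-0.96 to -0.60) in the miR-122 line. The products found only on chromosome 3 summed to 3434, 3841 and 3960 counts, with ratios of 0.06 (-0.003 to 0.13) and 0.04 (-0.02 to 0.11). The chromosome 17 products, at 123, 110 and 135 counts, gave -0.26 (-0.64 to 0.12) and -0.03 (-0.39 to 0.34). The X products, at 1460, 1392 and 1458 counts, gave -0.17 (-0.27 to -0.06) and -0.16 (-0.27 to -0.06), the second of which summed a lower miR-424-5p and a higher miR-424-3p. In the miR-122 line the chromosome 13 interval thus lay wholly below those of chromosomes 3, 17 and X.

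The mir-16 hairpins sit on both chromosomes 13 and 3, and only their 3p arms tell them apart. miR-16-2-3p, from chromosome 3, had 1384, 1602 and 1627 counts, with a log2 ratio to the control of 0.11 (0.01 to 0.22) in the miR-1 line and 0.07 (-0.03 to 0.17) in the miR-122 line. The ratio of miR-16-2-3p to miR-16-1-3p was 11.5 (9.57 to 14.02) in the control, 11.96 (10.02 to 14.4) in the miR-1 line and 18.7 (15.1 to 23.5) in the miR-122 line. The chromosome 3 arm was therefore the higher one throughout, and the miR-122 interval did not overlap those of the other two libraries. The shared miR-16-5p cannot be divided this way: its deposited counts were 3052.5 for hsa-mir-16-1 and 3049.5 for hsa-mir-16-2 in the control, an even division that comes from the counting.

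By arm, the 7 members from 5p arms summed to 9371, 9074 and 8134 counts, with log2 ratios to the control of -0.14 (-0.19 to -0.10) in the miR-1 line and -0.37 (-0.41 to -0.32) in the miR-122 line. The 8 from 3p arms summed to 2421, 2674 and 2904 counts, with ratios of 0.05 (-0.03 to 0.13) and 0.10 (0.02 to 0.18). In the miR-122 line 6 of 7 members from 5p arms had ratios below 0, as did 55.4% of all 213 miRNAs kept whose names end in 5p. Of the 5 members kept from 3p arms 2 were below 0, against 54.5% of 211. The 6 members with the seed AGCAGCA summed to 8606, 8379 and 7447 counts, and their ratios of -0.14 (-0.18 to -0.09) and -0.37 (-0.42 to -0.33) were close to those of all 5p arms. miR-16-5p held 6102 of the 8606 counts in the control.

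The balance of the arms was taken within each library, which removes the scaling. For hsa-mir-424 the 5p arm took 46.6% (42.9 to 50.3%) of both arms' counts in the control, 42.0% (38.4 to 45.7%) in the miR-1 line and 25.8% (22.8 to 29.0%) in the miR-122 line. Its arms are marked in capitals in the hairpin, 5p first, since this is the hairpin of the family whose arms parted most in the miR-122 line.
hsa-mir-424: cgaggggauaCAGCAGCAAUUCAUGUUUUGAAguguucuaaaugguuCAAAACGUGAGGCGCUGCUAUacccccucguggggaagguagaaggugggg

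The log2 ratio of 5p to 3p for hsa-mir-424 was lower in the miR-122 line than in the control by 2.51-fold, a shift of -1.32 (-1.64 to -1.01). A shift of at least 2-fold, either way, was seen in 12.4% of the 113 hairpins with both arms kept, and 9 of the 113, hsa-mir-424 included, shifted at least as far as hsa-mir-424 did. Between the miR-1 line and the control the shift was -0.27 (-0.58 to 0.04), with 4.42% of the 113 past 2-fold. Of the 3 family hairpins with both arms kept, hsa-mir-424 and hsa-mir-15b differed in this. For hsa-mir-15b the 5p arm took 75.9%, 77.8% and 76.6%, a shift of 0.06 (-0.14 to 0.26) in the miR-122 line. For hsa-mir-195 it took 48.5%, 56.8% and 39.1%, with a shift of -0.54 (-1.33 to 0.24) in the miR-122 line, on at most 115 counts a library. That interval overlapped those of both other hairpins, so hsa-mir-195 was not set apart from either.

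For the mir-16 hairpins only a joint share can be measured. miR-16-5p took 80.2% (79.3 to 81.1%) of the counts of hsa-mir-16-1 and hsa-mir-16-2 together in the control, 76.8% in the miR-1 line and 74.6% (73.6 to 75.7%) in the miR-122 line. Under the even division of its deposited counts the share would be 96.2%, 95.5% and 96.7% for hsa-mir-16-1 and 68.8%, 64.2% and 60.8% for hsa-mir-16-2, which is set by that division and is no measurement of either hairpin. The 5p arm took at least 99.4% of counts for hsa-mir-15a and hsa-mir-503 in every library. For hsa-mir-497 it took 25 of 26 counts in the control and all counts in both induced lines, 29 and 20.

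**Figure D3:**
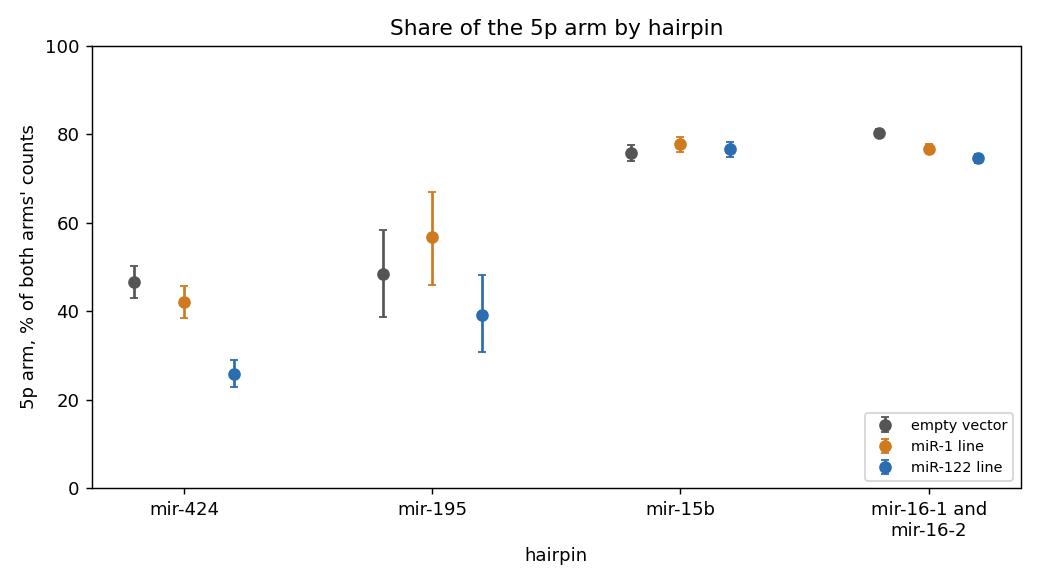
Share of the 5p arm in the counts of both arms (percent) for hsa-mir-424, hsa-mir-195, hsa-mir-15b and the mir-16 hairpins together, in the control, the miR-1 line and the miR-122 line; bars are 95% Wilson intervals. The share for hsa-mir-424 was 46.6% in the control and 25.8% in the miR-122 line, while that for hsa-mir-15b lay between 75.9% and 77.8%.

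Set directly against each other, the induced lines differed most in members of the chromosome 13, 17 and X loci. The family sum had a log2 ratio of 0.16 (0.12 to 0.19), miR-1 line to miR-122 line. Past 1.5-fold, 4 of 12 members were higher in the miR-1 line, where 14% of all miRNAs kept were, and 1 of 12 was lower, where 9.14% of all were. The higher ones were miR-16-1-3p at 0.69 (0.29 to 1.09), miR-15a-5p at 0.66 (0.46 to 0.86), miR-424-5p at 0.62 (0.36 to 0.89) and miR-497-5p at 0.59 (-0.27 to 1.5). The last of these rested on 29 and 20 counts, and fell short of 1.5-fold with DESeq2 size factors (0.58) and with a pseudocount of 5 (0.51). miR-424-5p fell short with the trend in base composition taken out (0.54). Each of these alternatives left 3 members higher. The lower one was miR-195-3p at -0.92 (-1.56 to -0.33), on 35 and 70 counts. miR-424-3p was also lower in the miR-1 line, at -0.44, short of the fold limit. This comparison uses the same miR-122 library as the one before and is no second measurement of it.

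**Figure D4:**
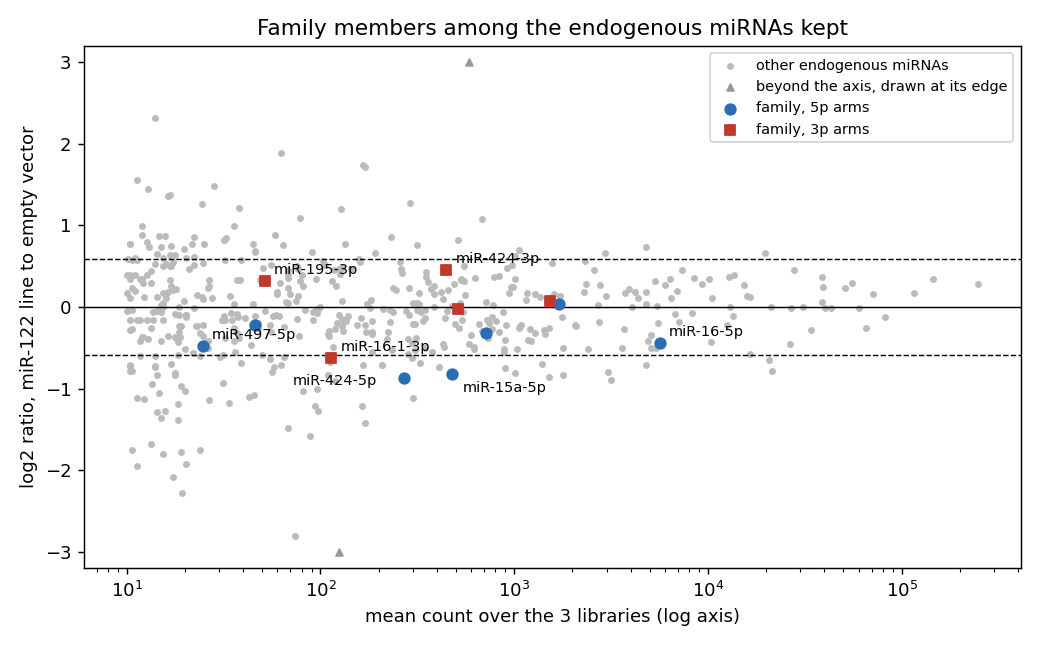
Log2 ratio of the miR-122 line to the control against mean count (log axis) for the 514 endogenous miRNAs kept (grey) and the family (5p arms as blue circles, 3p arms as red squares); dashed lines are 1.5-fold and triangles are miRNAs beyond the axis. The 3 members past the lower line, miR-15a-5p, miR-424-5p and miR-16-1-3p, lie among other miRNAs of like abundance. Of all 263 miRNAs with a mean of at least 100 counts, these 3 included, 9.89% were past that line.

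Relatives of the family were read from fixed lists. The miRNAs encoded close to mir-424 and mir-503 on the X chromosome, of the miR-450 and miR-542 families, had 5 of 7 kept. In the miR-1 line 0 of 5 were past 1.5-fold, where 7.2% of all miRNAs kept were higher and 9.34% lower. Their median log2 ratio was -0.15, against -0.01 over all. In the miR-122 line 0 were higher and 1 was lower, where 11.3% and 15.8% of all were. The median there was -0.34, against -0.04 over all. With 5 miRNAs, these counts do not set the list apart from all miRNAs. The lower one in the miR-122 line was miR-450a-5p, at 1165, 1124 and 745 counts, with -0.81. miR-450b-5p, at 1135, 1064 and 890 counts, had -0.51 there, and miR-542-3p, at 597, 666 and 528 counts, had -0.34. The low 3p arms lay nearer to 0 or above it: miR-450a-2-3p, at 26, 23 and 25 counts, had -0.22, and miR-450a-1-3p, at 10, 10 and 13 counts, had 0.20. For comparison, miR-503-5p had -0.32 and miR-424-5p -0.87.

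Of 5 miRNAs with related seeds, miR-103a-3p and miR-107, metabolic regulators whose seeds overlap that of miR-16, were kept, and neither was past 1.5-fold. Over all miRNAs kept, 7.2% to 15.8% were past it in a given direction, depending on the comparison. miR-103a-3p, at 33742, 38605 and 44977 counts, outnumbered the whole family in every library, with a log2 ratio to the control of 0.25 in the miR-122 line. miR-107, at 2507, 2725 and 1959 counts, had -0.52. They share reads in the counting, so their split is uncertain. miR-6838-5p, with the family's seed, had 2, 0 and 0 counts. Of 7 other miRNAs known to restrain the cell cycle (the miR-34, miR-449 and miR-26 groups), 5 were kept and 0 were past 1.5-fold in any comparison. With 5 miRNAs, a count of 0 does not set them apart from the shares over all. Their medians were -0.16 in the miR-1 line and -0.30 in the miR-122 line, against -0.01 and -0.04 over all miRNAs kept. In that group miR-34a-5p, a p53 target, had 739, 626 and 673 counts and log2 ratios of -0.34 and -0.30.

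The miRNAs whose pair of log2 ratios to the control was most like that of miR-16-5p were sought among 262 others with a mean of at least 100 counts, over 3 libraries. They were miR-148b-3p (distance 0.048 on the log2 scale), miR-106b-5p (0.053) and miR-301a-5p (0.060). miR-148b-3p had 11383, 10364 and 9452 counts, miR-106b-5p 5377, 4890 and 4506, and miR-301a-5p only 476, 443 and 378. The nearest family member, miR-503-5p, ranked 15 at 0.13, while miR-15a-5p and miR-15b-5p ranked 89 and 136. These ranks take no account of counting error, and the intervals of miR-503-5p and miR-16-5p overlapped in both comparisons to the control.

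The base composition of the mature miRNAs was compared with the ratios, for 452 of the 514 kept (87.9%) that had a sequence. Pearson's r across miRNAs, which share these libraries and are not replicates, was 0.11 and Spearman's rho 0.19 for the miR-122 line against the control, and 0.05 and 0.06 for the miR-1 line. With this trend taken out, miR-15a-5p had a log2 ratio of -0.74, miR-424-5p of -0.75 and miR-16-1-3p of -0.57 in the miR-122 line, the last of them short of 1.5-fold.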

How the data were processed

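Small RNA was sequenced from 3 cultures, 1 library each. Per the study's methods, the authors removed adapter sequence, discarded reads below 18 nt, merged identical reads and aligned them with miRDeep2 to miRBase release 21 hairpins, with synthetic hairpins appended. For each pair of mature miRNA and hairpin the authors deposited an estimated count, a read that mapped to several hairpins being divided among them; hg19 is named in the submitters' processing notes, but no genome entered that counting. RPM values deposited by the authors include the induced miRNAs in their total and, like the authors' pooled total, were not used.

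Counts were summed by mature name over hairpins and rounded to whole numbers for intervals and scaling. Synthetic hairpins were set aside, and endogenous miRNAs were kept where their counts averaged at least 10 (514 of 1351). Libraries were scaled by TMM on these (edgeR 4.0.16, R 4.3.3). Log2 ratios used a pseudocount of 0.5 counts. With 1 library a group there was no test: a miRNA was called past a 1.5-fold difference. Intervals, at 95%, were Wilson for shares, exact Poisson for levels, conditional binomial (Clopper-Pearson) for ratios of counts, and normal on the log scale for shifts between arms. There were no molecular identifiers, and intervals and the floor of 3 counts (given in RPM over all counts of a library) therefore cover counting error alone.

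All members of the 8 hairpins were named, as were the 3 miRNAs nearest to miR-16-5p by Euclidean distance of both log2 ratios to the control. Of the listed relatives, those kept could be named with values; for the cell cycle list the text gives 1 example beside its counts and medians. The members and lists were chosen with earlier results of these data known. The background of arm shifts, its 2-fold limit and the correction for base composition were added after seeing the data. Hairpins were located by exact match on GRCh37, with GENCODE annotation. Scripts were tested on simulated data. Python 3.11.15, pandas 2.3.3, SciPy 1.17.1 and matplotlib 3.10.9 were used. The alternatives included DESeq2 1.42.0 size factors.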

Additional observations from a re-analysis of the deposited data

How the results depend on the processing

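No paired analysis was possible because there was 1 library in every group, which also left no replicate to leave out. The cause of each move was not tested except where the alternative's construction shows it. When libraries were scaled by total counts with the induced miRNAs, which shifted the median of all miRNAs to -0.73 (miR-1 line to control), -0.53 (miR-122 line to control) and -0.22 (miR-1 line to miR-122 line), the family's log2 ratios became -0.83, -0.75 and -0.077, the last with a turned sign, and 12, 7 and 2 members were past 1.5-fold lower, with 0 higher in the last comparison. Against that shift, the family lay -0.10, -0.22 and 0.15 from the median. Shares of all counts were 0.406% in the miR-1 line and 0.428% in the miR-122 line. Scaled by total endogenous counts, the family's ratios were -0.35 for the miR-122 line to the control and 0.21 between the induced lines. Without a filter, 2 members were higher and 2 lower (miR-1 line to control), 2 higher (miR-122 line to control) and 2 lower (miR-1 line to miR-122 line), through members of at most 4 counts. With a mean of at least 100 counts, the family's ratio was -0.062 in the miR-1 line, and 0 members were lower there or between the induced lines. With a pseudocount of 5, 0 members were lower in the miR-1 line. With a 2-fold limit, 0 members were past it, in either direction, in any of the 3 comparisons. Using a miRNA's highest hairpin instead of its sum gave a family ratio of -0.20 in the miR-122 line and shares of 0.621%, 0.572% and 0.507% (control, miR-1 line, miR-122 line), and 5p arms alone gave 0.573%, 0.506% and 0.418%. No member past the fold limit turned its direction under any alternative run. Over all alternatives the miR-122 line to control ratio ran from -1.31 to -0.74 for miR-15a-5p, from -1.36 to -0.75 for miR-424-5p and from -1.12 to -0.57 for miR-16-1-3p, and the miR-1 line to control ratio from -1.33 to -0.56 for miR-195-3p. Depth limits the chromosome 17 members, whose intervals against the control held 0, and the 3 members of at most 4 counts.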
